A study of Rattus norvegicus with 9 samples.

Results

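The libraries compared here differ in how many of their reads come from the mitochondrial genome, and the question is which nuclear genes differ with it. The mitochondrial share of a library is its count over the 13 genes whose symbols start with Mt-, as a percentage of its count over the 15565 genes that both deposited tables hold. Libraries over 15% form the high side and libraries under 8% form the low side, whatever the diet of the animal. Of 9 libraries, 3 fell on the high side and 4 on the low side, and 2 lay between the thresholds and were left out. Those 7 libraries are the members described below. Reads of the same libraries set the sides, so the sides are not a treatment of the study, and the share itself is given as a description with no test.

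The libraries are bulk RNA-seq of liver from male SD rats, 3 in each of 3 groups. One group ate a normal diet, and the model group ate a high-fat diet for 8 weeks to bring about fatty liver disease. The third group was given SCL, an abbreviation the labels do not spell out, and the labels do not state its diet. The series' design text calls the third group SCS. The labels do not say whether each replicate was its own animal. The p-values below therefore describe how much these libraries vary, which may be technical. The source names call the normal-diet libraries wt and the high-fat diet libraries model, and they name no deletion or transgene.

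Mitochondria keep a small circular genome that encodes core subunits of complexes I, III, IV and V of the respiratory chain. Its transcripts are made by a dedicated polymerase inside the organelle, are processed there, and are stabilised by nuclear-encoded RNA-binding proteins such as Lrpprc. All other mitochondrial proteins, including the remaining chain subunits and the mitochondrial ribosome, come from nuclear genes and are imported. Hepatocytes are rich in mitochondria, and most of their other messenger RNA codes for secreted plasma proteins and metabolic enzymes. In a library of fixed depth, reads from the mitochondrial genome leave fewer reads for nuclear genes. Bulk tissue does not tell fewer cells of a type apart from less RNA per cell.

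On the high side, high-fat diet replicate 2 had a mitochondrial share of 18.8%, high-fat diet replicate 3 had 44.1% and SCL-treated replicate 2 had 49.0%. On the low side, normal diet replicate 1 had 4.63%, normal diet replicate 2 had 3.85%, high-fat diet replicate 1 had 4.90% and SCL-treated replicate 3 had 7.04%. The shares averaged 37.3% ± 16.2 (SD, n = 3) on the high side and 5.10% ± 1.36 (SD, n = 4) on the low side. Of the left-out libraries, normal diet replicate 3 had 11.2% and SCL-treated replicate 1 had 10.97%. The nearest libraries to the thresholds were therefore high-fat diet replicate 2 and SCL-treated replicate 3 on the inside, and both left-out libraries on the outside. No normal-diet library was on the high side, while the high-fat diet and SCL-treated groups had libraries on both. Side and diet are thus partly confounded, and each group of results is followed by the number of its named calls that are lost with diet as a term. Total reads were similar, 12413774 to 15521648 per library, but nuclear reads were 6326231 to 10887482 on the high side and 11901519 to 14761817 on the low side. Nuclear genes of low count are therefore measured less precisely on the high side.

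**Figure D1:**
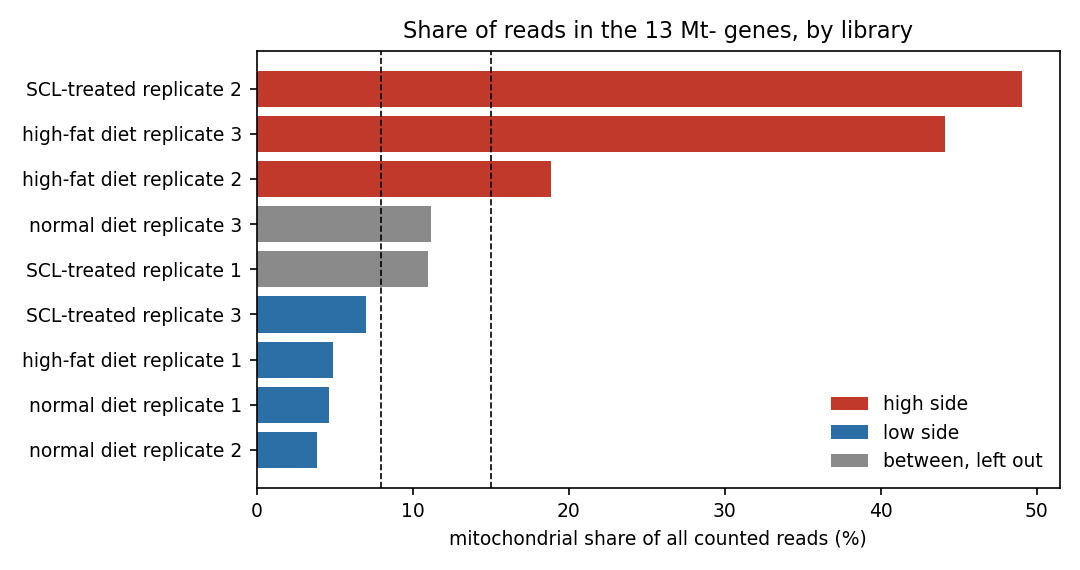
Mitochondrial share of all counted reads in each of the 9 libraries, in percent, with dashed lines at the thresholds of 8% and 15%. The high side (red) spans 18.8% to 49.0% and the low side (blue) 3.85% to 7.04%, and the 2 grey libraries were left out.

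Mt-co1, the catalytic subunit of complex IV, took 35.7%, 34.2% and 32.4% of mitochondrial reads in the high-side libraries, in the order in which they were listed above. It took 42.7%, 40.6%, 39.1% and 36.6% in the low-side libraries, likewise in their listed order. It was the single one of the 13 genes whose share of mitochondrial reads did not overlap between the sides, and its share was lower where the total was higher. Mt-atp6, of complex V, took 12.6% to 13.3% on the high side and 9.16% to 13.3% on the low side. Mt-cyb, of complex III, took 9.68% to 10.3% and 8.03% to 11.7%, and Mt-nd1, of complex I, took 8.80% to 9.48% and 6.88% to 9.18%. The shares of these 3 genes overlapped between the sides. Since these values come from the reads that set the sides, they are given without a test.

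Nuclear genes were compared after the Mt- rows were removed, so that a large mitochondrial share does not lower every other gene. Values below are CPM, the usual depth-scaled read counts, with nuclear reads after TMM scaling as the library size. Where single libraries are listed, those of the high side come in the order high-fat diet replicate 2, high-fat diet replicate 3 and SCL-treated replicate 2. Those of the low side come in the order normal diet replicates 1 and 2, high-fat diet replicate 1 and SCL-treated replicate 3. Differences are log2 fold changes of the high over the low side with their standard error (SE), and a gene is said to rise or fall where edgeR's quasi-likelihood test gave a Benjamini-Hochberg adjusted p under 0.05.

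Of 11866 nuclear genes tested, 2509 were called, 21.1% of them. On the high side 1193 genes rose (10.1%) and 1316 fell (11.1%), and 2048 of the called genes differed by more than 2-fold. The sides did not overlap for 3649 genes, 30.8% of those tested, and for 2203 of the called genes, 87.8%. Called genes were chosen because the sides differ, so the latter share is a description. The difference between the sides differed between the 2 diet groups that have both for 1 gene, Lcn2, 0.00843% of those tested. With diet group as a term, 945 genes were called (7.96%), 401 higher (3.38%) and 544 lower (4.58%), and 900 of them were called in the same direction without it. The fit with a side effect for each diet group has 2 residual degrees of freedom, and the lone libraries in it are assumed to vary like the others. For the high-fat diet group, where 2 libraries face 1, it called 1446 genes (12.2%). For the SCL-treated group, where 1 library faces 1, edgeR called 0 genes (0.0%), with 2883 at an unadjusted p under 0.05. The count depended on single libraries: it was 1063 without high-fat diet replicate 3, 1142 without SCL-treated replicate 2, 1194 and 1447 without normal diet replicates 1 and 2, 1441 without high-fat diet replicate 1, and 3946 without SCL-treated replicate 3. Scaling by total nuclear reads alone took the median of all genes from -0.01 to 0.36 on the log2 scale and turned the split of 2898 called genes (24.4%) into 2285 higher (19.3%) and 613 lower (5.17%). Every rise or fall below is therefore relative to the TMM scale, and the counts of a list under total scaling are given where they turn its direction.

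The libraries can be placed between the sides on the called genes. For each called gene, a library's position was placed between the mean of the low side (0%) and the mean of the high side (100%) on the log2 scale. For the 1193 higher genes, the median position was 39.6% in normal diet replicate 3 and 29.9% in SCL-treated replicate 1. For the 1316 lower genes, it was 46.0% and 37.7%. These 2 libraries took no part in choosing the genes, but the genes were chosen because the side means differ, so that a library unrelated to the share would also tend to lie between them. The positions are therefore a description and support nothing. Among the libraries that were used, high-fat diet replicate 2, with the lowest share of the high side, sat at 74.6% and 89.9%. SCL-treated replicate 3, with the highest share of the low side, sat at 13.3% and 33.0%. The first principal component over all 9 libraries held 49.7% of the variance.

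**Figure D2:**
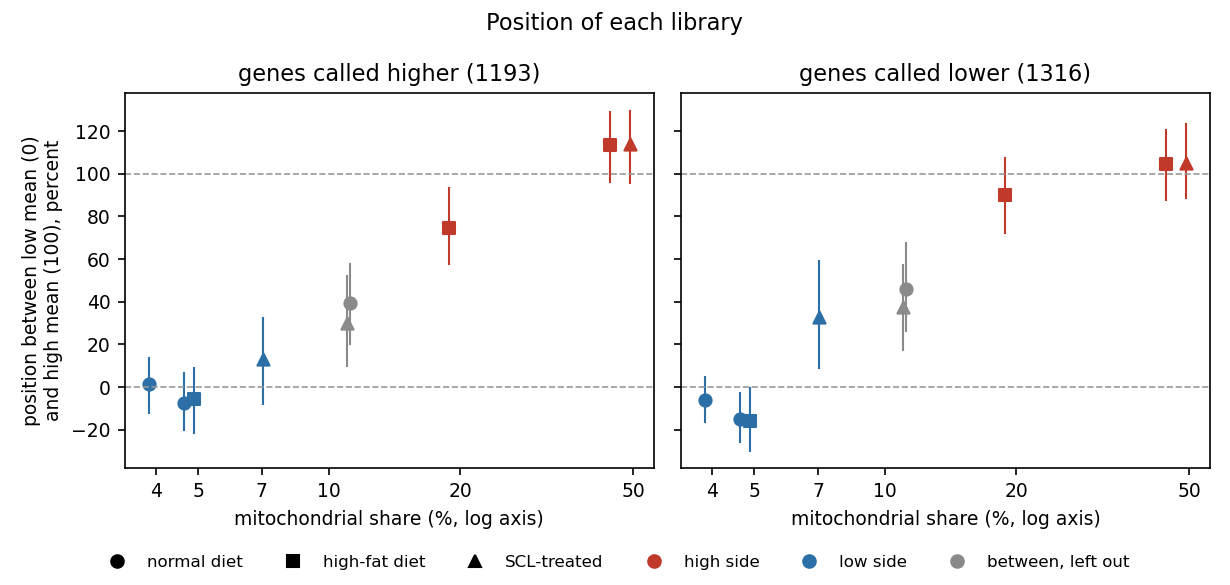
Position of each library between the low-side mean (0) and the high-side mean (100), in percent of the log2 difference, against its mitochondrial share on a log axis, for the genes called higher (left) and lower (right). Points are medians over genes and lines span the quartiles; the medians of the grey left-out libraries are 29.9% to 46.0%, a range that genes chosen for the side difference tend to give.

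The steepest rises were in genes that are scarce in the low-side libraries. Igf2, a fetal growth factor, measured 6.76, 6.53 and 46.9 CPM on the high side and 0.934, 1.17, 0.858 and 1.00 on the low side. SCL-treated replicate 2 stood far above the other libraries, and the difference was 4.32 (SE 0.68, adjusted p = 0.0040). Left-out normal diet replicate 3 held 8.88 CPM of Igf2, above high-fat diet replicates 2 and 3 of the high side. SCL-treated replicate 1 held 2.95 CPM, between the sides. Rasd1, a dexamethasone-induced Ras-like GTPase, measured 30.9, 101 and 90.5 CPM against 3.11, 5.51, 3.10 and 3.68. All high-side libraries were above all low-side ones, which the rule for naming the largest rises requires. The difference was 4.26 (SE 0.41, adjusted p = 0.0017). Within the high-fat diet group Rasd1 differed by 4.40 and within the SCL-treated group by 4.62. Left-out normal diet replicate 3 held 15.4 CPM of Rasd1, between the sides, and SCL-treated replicate 1 held 5.15 CPM, within the range of the low side. Mmp12, the macrophage elastase, measured 1.96, 4.35 and 8.28 CPM against 0.389, 0.734, 0.198 and 0.112. Chrdl1, a secreted BMP antagonist, measured 4.12, 6.31 and 8.53 CPM against 0.389, 0.367, 0.528 and 0.892, and differed by 3.55. The other genes of the 12 largest rises were Doc2g, Iqub, Ldlrad1, Acrbp, Sstr3, Rgsl2h, Tnfrsf25 and Npff, with differences of 3.55 to 4.002. Of these 12 genes, 11 kept their call when any 1 library was left out and when diet was a term. Tnfrsf25 lost it without high-fat diet replicate 3 and with diet as a term.

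The steepest falls included genes that are abundant on the low side. Cyp3a2, a cytochrome P450 that oxidises steroids and drugs, measured 64.5, 53.7 and 43.9 CPM on the high side and 1126, 1083, 1696 and 810.2 on the low side. The difference was -4.45 (SE 0.38, adjusted p = 0.0016), and it was -4.84 within the high-fat diet group and -4.21 within the SCL-treated group. Reads may be shared among close Cyp3a copies, so the level of the single gene is uncertain. Slc7a2, a carrier of arginine and lysine, measured 9.80, 7.51 and 13.6 CPM against 223, 169, 222 and 27.7. Slc4a4, a sodium bicarbonate cotransporter, measured 1.27, 1.09 and 1.11 CPM against 44.7, 38.7, 27.2 and 3.01. In both carriers SCL-treated replicate 3 lay nearer to the high side than the other low-side libraries did. Edem3, which trims misfolded glycoproteins in the endoplasmic reticulum, showed the same arrangement, at 1.27, 1.09 and 1.73 CPM against 34.01, 25.6, 35.8 and 2.12. Its difference was -4.91 within the high-fat diet group and -0.29 within the SCL-treated group. Il13ra1, a receptor chain for interleukin 13, differed by -4.16, Mettl7b by -4.06 and Mtdh by -3.92.

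For 5 of the 12 largest falls the high side held few reads. Cd274, which encodes the checkpoint ligand PD-L1, had 0, 1 and 0 reads on the high side and 69, 71, 65 and 16 on the low side. Pooled over libraries and scaled, the low side was 120-fold above the high side, with an exact 95% interval of 21.3 to 4762 that covers counting error only. Nudcd3, a co-chaperone, had 1, 2 and 0 reads against 45, 62, 74 and 21, a pooled ratio of 36.6 with an interval of 12.3 to 178.8. Acmsd, an enzyme of tryptophan breakdown, had 2, 4 and 1 reads against 139, 401, 78 and 34. Cmtm4 and Vwce held 5 reads each over the high side. These ratios rest on few reads, and the size of each fall is known only within its interval. All 12 of the largest falls kept their call when any 1 library was left out and when diet was a term.

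Nuclear genes that maintain and express the mitochondrial genome were called in both directions, and 21.1% of all genes were called, or 24.4% under total scaling. Of 20 genes of mitochondrial DNA transcription and replication, 2 rose and 1 fell, and their median difference was 0.09; under total scaling 5 rose and 1 fell. Tfam, which packages mitochondrial DNA and starts its transcription, measured 39.6, 42.1 and 37.3 CPM on the high side and 36.0, 47.1, 36.7 and 38.3 on the low side. The sides overlapped throughout, and the difference was 0.01 (SE 0.20), not called. Polg, the catalytic subunit of the mitochondrial DNA polymerase, measured 45.8, 69.7 and 54.4 CPM against 215, 226, 196 and 106. It fell by 1.71 on the log2 scale (SE 0.31, adjusted p = 0.0064), and by 1.43 with diet as a term (adjusted p = 0.032). Mterf1, a transcription terminator of the organelle, and Ssbp1, its single-stranded DNA binding protein, rose by 1.30 and 0.91. The sides overlapped for both.

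Of 20 genes of mitochondrial RNA processing and decay, 2 rose and 1 fell, or 5 and 0 under total scaling. Fastkd1, an RNA-binding protein of the organelle, measured 11.6, 34.8 and 27.3 CPM against 7.70, 6.97, 7.72 and 5.58, a difference of 1.81 (adjusted p = 0.0074). Ptcd3, a protein of the mitochondrial ribosome, rose by 0.77. Lrpprc, which stabilises mitochondrial messenger RNAs, measured 90.9, 89.2 and 99.3 CPM against 137, 156, 142 and 152. It was lower in all 3 high-side libraries, by 0.65 on the log2 scale, and passed the test narrowly (adjusted p = 0.049). Pprc1, a coactivator of mitochondrial biogenesis, was the 1 of 8 tested biogenesis regulators that was called, at 0.87. Of the 7 called genes named in this and the preceding paragraph, Polg and Fastkd1 kept their call when any 1 library was left out. The other 5 lost it without either normal-diet library and without replicate 1 or 3 of the high-fat diet group. Of these 5, 4 were also lost without SCL-treated replicate 2 and 2 without high-fat diet replicate 2. The same 5 calls were lost with diet as a term, with Lrpprc at -0.64 (adjusted p = 0.18).

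Nuclear-encoded subunits of the respiratory chain were uneven. Of 36 complex I genes, 2 rose and 1 fell, with a median of 0.47. For complexes II and III together, 0 of 13 genes rose and 2 fell, or 1 and 1 under total scaling, with a median of 0.08. For complex IV, 1 of 13 genes rose, with a median of 0.48, and for complex V, 2 of 17 rose and 1 fell, with a median of 0.60. Each of these called shares is below the 21.1% of all genes, but under total scaling 15 complex I genes rose and 1 fell, 6 complex IV genes rose and 10 complex V genes rose, and those shares are above the 24.4% of all genes. Cox7c, a small subunit of complex IV, measured 495, 421 and 404 CPM against 131, 234, 137 and 312, and rose by 1.11. Ndufa5 and Ndufb2 of complex I rose by 1.26 and 1.25, and Atpif1, the inhibitor of complex V, rose by 1.28, and its subunit Atp5j by 0.93. Uqcrc2, a core protein of complex III, measured 31.3, 32.0 and 50.7 CPM against 107, 92.6, 114 and 98.8, and fell by 1.44. Sdha, the flavoprotein of complex II, fell by 0.98, and Atp5a1, the alpha subunit of the complex V catalytic head, fell by 1.00. Ndufa10l1, an accessory subunit of complex I, fell by 1.82.

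The medians had opposite signs in the 2 diet groups. Within the high-fat diet group the median was 0.88 for complex I, 1.00 for complex IV and 1.21 for complex V. Within the SCL-treated group it was -0.59, -0.38 and -0.50. In SCL-treated replicate 3, a low-side library, Cox7c was at 312 CPM and Ndufb2 at 127 CPM, the highest of the low side in both. As a share of nuclear reads, the chain took 1.59%, 1.56% and 1.46% in the high-side libraries and 0.776%, 0.971%, 0.946% and 1.27% in the low-side ones. The sides did not overlap, but the exact two-sided permutation test gave p = 0.057, adjusted to 0.11 over 10 library measures. The smallest p that 3 against 4 libraries can give is 0.0286. Of the 9 chain genes called among those examined singly, Ndufa10l1 and Uqcrc2 kept their call when any 1 library was left out. Each of normal diet replicates 1 and 2, high-fat diet replicates 1, 2 and 3 and SCL-treated replicate 2 was needed for 4 to 7 of the other calls. Diet as a term ended 7 of the 9, Cox7c among them at 1.14 (adjusted p = 0.15) and Sdha at -1.13 (adjusted p = 0.061).

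Other mitochondrial systems held both rises and falls. Of 71 mitochondrial ribosomal proteins, 6 rose and 1 fell, where 10.1% and 11.1% of all genes did, with a median of 0.19. Mrps36 measured 33.8, 30.05 and 33.4 CPM against 13.4, 18.4, 12.9 and 13.9 and rose by 1.15, and Mrpl54 rose by 1.26. Of 14 chaperones and proteases, 0 rose and 3 fell, and of 25 import genes, 0 rose and 2 fell, against 11.1% of all genes that fell. Under total scaling 19 mitochondrial ribosomal proteins rose and 0 fell, 3 import genes rose and 1 fell, and 0 chaperones rose and 1 fell. Of all genes, 19.3% rose and 5.17% fell under that scaling. Hspa9, the mitochondrial Hsp70 that pulls imported proteins into the matrix, measured 26.9, 63.1 and 41.5 CPM against 247, 233, 272 and 150. It was lower in every high-side library, by 2.36 on the log2 scale (SE 0.35, adjusted p = 0.0030). Tomm70, a receptor on the outer membrane for incoming proteins, fell by 1.53, and Grpel1, the nucleotide exchange factor of Hspa9, fell by 0.98. The proteins Lonp1, a matrix protease, and Phb2, a prohibitin, fell by 0.87 and 0.89.

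In the matrix pathways, 1 of 16 citric acid cycle genes fell, Suclg2 by 0.86. Of 31 fatty acid oxidation genes 2 fell, where 11.1% of all genes did. Hadh, which carries out the third step of the oxidation spiral, measured 73.0, 93.3 and 102 CPM against 292, 289, 343 and 284. It fell by 1.75 (SE 0.25, adjusted p = 0.0025), while Bdh1, a ketone body enzyme, fell by 0.79. The list medians were -0.30 for the citric acid cycle, -0.17 for fatty acid oxidation and -0.22 for chaperones. Under total scaling they turned to 0.07, 0.21 and 0.16. There 3 fatty acid oxidation genes rose and 1 fell, where 19.3% and 5.17% of all genes did. No direction is therefore given for these lists as a whole. Among the 10 mitochondrial genes of this and the preceding paragraph, Mrps36, Tomm70, Hspa9 and Hadh kept their call when any 1 library was left out. Leaving out high-fat diet replicate 3 ended 6 of the calls, and leaving out high-fat diet replicate 1, either normal diet library or SCL-treated replicate 2 ended 5 each. Without high-fat diet replicate 2, 1 call was lost. The other 6 were lost with diet as a term.

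Among genes of RNA processing, more rose than fell on the high side. Of 38 tested genes of the spliceosome and its regulators, 15 rose and 2 fell, against 10.1% and 11.1% of all genes, and their median difference was 0.53. With diet as a term the median was again 0.53, with 11 higher and 0 lower, against 3.38% and 4.58% of all genes. Within the 2 diet groups the median was 0.55 and 0.61. Luc7l2, a component of the U1 snRNP, measured 140.4, 147.5 and 147.1 CPM against 34.2, 41.0, 42.2 and 47.0. The libraries of each side lay close together, and the difference was 1.82 (SE 0.21, adjusted p = 0.0017). Tra2a, a splicing activator, measured 46.4, 77.1 and 82.6 CPM against 9.49, 11.7, 10.6 and 19.4, a difference of 2.43 (SE 0.31). Clk1 and Clk4, kinases that phosphorylate splicing factors of the SR family, rose by 2.04 and 1.91. Srsf11, an SR protein, measured 78.0, 145 and 127 CPM against 24.6, 29.5, 34.7 and 32.8 and rose by 1.94. The left-out libraries lay between the sides: Luc7l2 was at 62.9 CPM in normal diet replicate 3 and 56.6 CPM in SCL-treated replicate 1. Prpf8 and Sf3b2, core proteins of the spliceosome, were the 2 that fell, by 1.28 and 0.89. The 5 named rises kept their call when any 1 library was left out, and the 2 falls lost theirs without high-fat diet replicate 3 or SCL-treated replicate 2. With diet as a term the 5 rises were called and the 2 falls were not. Sf3b2 also lost its call without either normal-diet library or high-fat diet replicate 1.

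**Figure D3:**
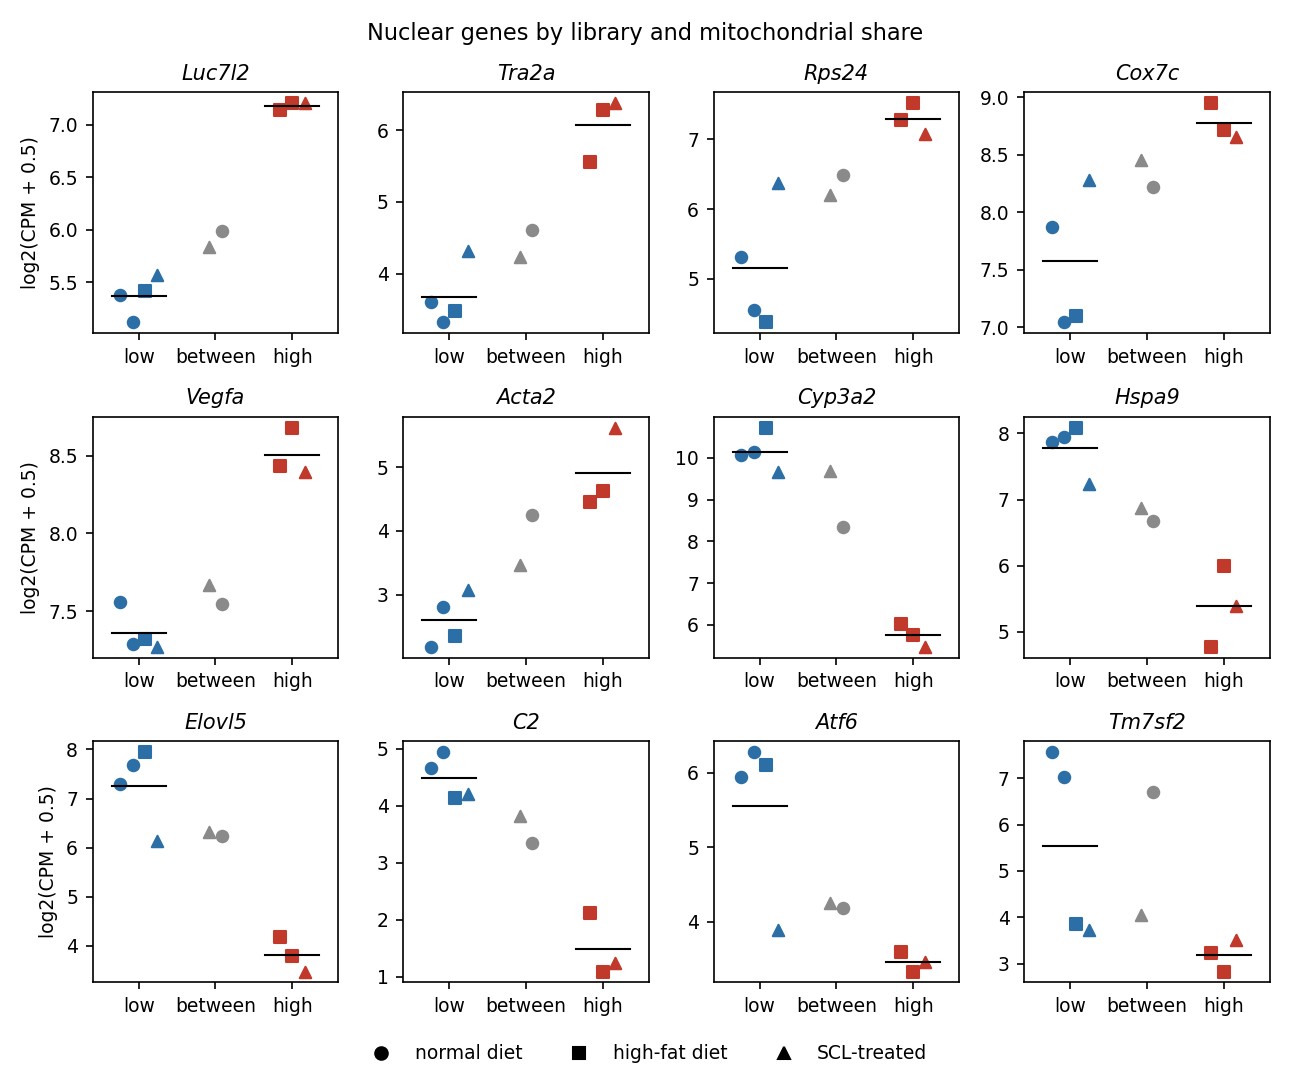
Level of 12 nuclear genes in each library, as log2(CPM + 0.5), by side; bars mark side means, symbols mark the diet group, and the left-out libraries stand between. Luc7l2 and Tra2a lie higher and Cyp3a2, Hspa9, Elovl5 and C2 lower in all 3 high-side libraries, whereas Tm7sf2 is high in normal-diet libraries and low in the others on both sides.

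Some genes of the cytosolic ribosome rose on the high side, and none fell. Of 72 tested ribosomal protein genes, 18 rose and 0 fell, against 10.1% and 11.1% of all genes, and their median difference was 0.68. Under total scaling 42 rose, where 19.3% of all genes did. It was 1.25 within the high-fat diet group and -0.17 within the SCL-treated group. The interaction test called 0 of these genes. Rps24, of the small subunit, measured 154, 183 and 134 CPM against 23.0, 39.2, 20.3 and 82.6 and rose by 1.93 (adjusted p = 0.013). SCL-treated replicate 3 again lay highest on the low side. As a share of nuclear reads, the ribosomal proteins took 1.803%, 2.0001% and 2.09% on the high side and 0.815%, 0.978%, 0.797% and 1.42% on the low side. These shares did not overlap (exact two-sided permutation test, p = 0.057, adjusted p = 0.11). Rps18 measured 10.3, 15.9 and 13.2 CPM against 2.26, 3.74, 2.64 and 4.46, and rose by 2.01. Ribosomal protein genes have many processed copies in the genome, so reads may be split among copies and single levels are uncertain. With diet as a term, 3 of the 72 genes rose, where 3.38% of all genes did, so the share was near that of all genes. Of 14 genes listed as translation factors, 1 rose, Npm1, by 1.16. Their median was -0.04, or 0.33 when scaled by total nuclear reads.

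Messenger RNAs of ribosomal proteins and of several translation factors start at a cytosine followed by a run of pyrimidines, a terminal oligopyrimidine tract, through which growth signals control their translation. Sequences of the region around the annotated start are shown for 3 ribosomal protein genes that rose, 1 that was not called, and 2 translation factors, to let the tract be seen beside the result. They are RefSeq sequences of build GRCr8, 30 bases long with 15 before the start, on the transcript's strand, 5′ to 3′. Capitals mark the first match to the motif CTTTT, the motif CTTTC or the motif CCTTT and the pyrimidines that run on from it.
Rps24, chr16:96502-96531, plus strand: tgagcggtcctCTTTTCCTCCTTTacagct
Rpl13a, chr1:104748899-104748928, minus strand: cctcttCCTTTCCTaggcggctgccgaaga
Rpl35, chr3:43165907-43165936, minus strand: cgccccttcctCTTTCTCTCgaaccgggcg
Rps2, chr10:14251833-14251862, plus strand: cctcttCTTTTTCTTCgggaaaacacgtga
Npm1, chr10:18255727-18255756, minus strand: ccgcgtCCTTTCCTTggcgtgattccgtcc
Eif3k, chr1:93397473-93397502, minus strand: tCTTTTTCTTCCggtccttgagtacttagt
Rps24, Rpl13a and Rpl35 rose by 1.93, 1.16 and 1.26, and Npm1 rose by 1.16. Rps2 measured 105, 52.4 and 90.0 CPM against 114, 121, 122 and 139 and differed by -0.58, not called. Eif3k, a subunit of initiation factor 3, differed by 0.76, not called (adjusted p = 0.059). The marked stretch runs past the annotated start in Rps24 and Rpl35, reaches it with its last base alone in Rps2, and ends before it in Rpl13a, Npm1 and Eif3k. In Rpl13a, Npm1 and Eif3k it is thus not part of the annotated transcript, and no tract is shown there. In Rps2 only its last base is part of the annotated transcript, so no tract is shown there either. The motifs, of which CTTTC and CCTTT can overlap, were found within 20 bases either side of the start in 9 of 14 called ribosomal protein genes with a RefSeq window, 64.3%. They were found in 26 of 43 uncalled ones, 60.5%, in 7 of 10 factors, 70.0%, and in 11.02% of all 27457 promoters. On the other strand they were found in 0 of 14, 3 of 43, 0 of 10 and 10.98%. Of the 5 called genes here, Rps18 kept its call when any 1 library was left out. Without high-fat diet replicate 3, 4 of the calls were lost, and 1 to 3 without high-fat diet replicate 1 or 2, SCL-treated replicate 2 or normal diet replicate 1. Rps18 was called with diet as a term and the other 4 were not.

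Complement and coagulation genes fell on the high side more often than genes at large, of which 11.1% fell. Of 40, 13 fell and 0 rose, with a median of -0.77. With diet as a term the median was -0.79 and 5 were lower, against 4.58% of all genes. C2, a protease of the complement cascade, measured 3.82, 1.63 and 1.85 CPM against 30.2, 24.96, 17.2 and 18.1, a difference of -3.19 (SE 0.38, adjusted p = 0.0017). Masp1, a protease of the lectin pathway, measured 24.9, 23.9 and 24.98 CPM against 135.6, 122.6, 132.8 and 31.0. SCL-treated replicate 3 was near the high side in Masp1 but with the low side in C2. C4a and C4b, near-identical copies whose reads may be split, also fell, C4b by 3.18. Of 40 plasma protein genes, 6 fell and 1 rose, a share of falls near that of all genes, with a median of -0.62. Itih2, a hyaluronan-binding serum protein, measured 190, 88.7 and 111 CPM against 999.9, 722, 789 and 729 and fell by 2.64. Plg, plasminogen, fell by 1.84 and Apoa4, an apolipoprotein of chylomicrons, by 2.44. Mup5, a major urinary protein with close copies, was the 1 that rose, by 1.94. Crp, an acute-phase protein, measured 1522, 423 and 492 CPM against 7328, 8049, 4759 and 2825 and fell by 2.82; it was 1 of 2 called among 21 acute-phase genes, again near the share of all genes.

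Albumin itself was not called. Alb measured 116260, 57048 and 59939 CPM on the high side and 152050, 116280, 118650 and 194280 on the low side. Its difference was -0.90 with an SE of 0.53. The plasma protein genes took 33.5%, 24.0% and 23.7% of nuclear reads on the high side and 36.0%, 32.8%, 32.4% and 39.3% on the low side. The 10 most abundant nuclear genes of each library took 24.7%, 17.5% and 17.4% against 28.2%, 25.1%, 25.3% and 30.6%. The latter did not overlap and reached the smallest p the design allows (exact two-sided permutation test, p = 0.0286, adjusted p = 0.095). None of the 10 library measures passed after adjustment. At 6 M nuclear reads drawn from each library, 13621 ± 369 genes (SD, n = 3) were detected on the high side and 13429 ± 248 (SD, n = 4) on the low side, with overlap.

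Some genes of protein folding in the secretory pathway fell. Of 35 genes of the unfolded protein and integrated stress responses, 7 fell and 1 rose, against 11.1% and 10.1% of all genes, with a median of -0.39. Under total scaling 5 fell and 2 rose, with a median of -0.04, where 5.17% and 19.3% of all genes did. Atf6, a sensor of misfolded protein in the endoplasmic reticulum, measured 11.6, 9.58 and 10.5 CPM against 77.04, 61.0, 68.5 and 14.3. Its difference was -2.39 over all 7 libraries, -2.69 within the high-fat diet group and -0.44 within the SCL-treated group. Edem1, which marks misfolded glycoproteins for breakdown, fell by 2.30, and Pdia4, a disulfide isomerase, by 1.52. Ddit3, a transcription factor of the stress response, was the 1 that rose, by 1.33. Of 34 lysosome and autophagy genes, 7 fell and 1 rose, with a median of -0.25. Under total scaling 2 fell and 1 rose, with a median of 0.13. Npc1, a lysosomal cholesterol carrier, fell by 1.42. Among the 14 called genes named in the secretory paragraphs, 9 kept their call when any 1 library was left out. Apoa4, Plg, Pdia4, Ddit3 and Npc1 did not: high-fat diet replicate 3 was needed for all 5, SCL-treated replicate 2 for 3, and each of the normal diet libraries and high-fat diet replicate 1 for 1. Mup5, Plg, Ddit3 and Npc1 lost their call with diet as a term.

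Metabolic genes of the hepatocyte are given beside the 11.1% of all genes that fell and the 10.1% that rose. Under total scaling those shares were 5.17% and 19.3%. Of 40 genes of the urea cycle and amino acid breakdown, 8 fell and 0 rose, with a median of -0.40 that was -0.02 under total scaling. Slc25a13, the aspartate and glutamate carrier citrin, measured 13.7, 30.2 and 21.1 CPM against 187, 152, 197 and 76.4, a difference of -2.82 (adjusted p = 0.0025). Cps1, the first enzyme of the urea cycle, measured 1971, 863 and 1170 CPM against 4717, 4585, 4471 and 3288. Of 23 genes of gluconeogenesis and glycogen, 5 fell and 1 rose, or 3 and 2 under total scaling. Gckr, the regulator of glucokinase, rose by 0.76. Among the falls were Foxo1, a transcription factor that insulin restrains, by 2.56, and Pklr, liver pyruvate kinase, by 1.57. The sides overlapped for Foxo1. Of the others, Insr, the insulin receptor, fell by 1.12 and Ppp1r3b, a glycogen-targeting subunit, by 1.40. Of 24 cytochrome P450 genes of families 1 to 3, 6 fell and 1 rose, with Cyp2d4 at -1.52 and Cyp2c12 at -2.05. The sides overlapped for Cyp2c12, with high-fat diet replicate 1 of the low side at 6.60 CPM and the high side at 7.45, 11.6 and 11.3. Its difference was 0.53 within the high-fat diet group and -0.45 with diet as a term, not called. Of 18 bile acid genes, 4 fell and 0 rose, with a median of -0.41 that was -0.03 under total scaling, and with Abcc2, a canalicular export pump, at -1.75 and Cyp8b1, a sterol hydroxylase, at -1.60. Among 16 clock genes, Nr1d1, a repressor of the clock, measured 6.08, 4.46 and 6.31 CPM against 27.2, 23.1, 18.2 and 49.3. It fell by 2.38, Bhlhe40 fell by 1.85 and Npas2, an activator, rose by 1.10. The clock list thus had 1 rise and 2 falls, or 3 and 2 under total scaling.

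Fatty acid synthesis genes fell in part. Of 20 genes of fatty acid and triglyceride synthesis, 8 fell and 1 rose, against 11.1% and 10.1% of all genes. Their median was -1.18, or -0.72 with diet as a term. Elovl5, which lengthens polyunsaturated fatty acids, measured 17.5, 13.3 and 10.6 CPM against 206, 156, 246 and 69.7. It differed by -3.61 (SE 0.44), and by -3.99 and -2.71 within the diet groups. Fads2 and Fads1, the desaturases of the same pathway, fell by 2.38 and 2.26, and Gpam, which starts triglyceride synthesis, by 2.34. Of the 18 metabolic, lipid and clock genes named here and in the preceding paragraph, 7 kept their call when any 1 library was left out, namely Slc25a13, Elovl5, Fads2, Gpam, Cyp2d4, Abcc2 and Nr1d1. Leaving out SCL-treated replicate 2 ended 11 of the calls, high-fat diet replicate 3 ended 8, and the normal diet libraries and high-fat diet replicates 1 and 2 ended 3 to 5 each. Diet as a term ended 9, among them Cps1 at -1.59 (adjusted p = 0.070), Gpam and Fads1.

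The differences in cholesterol synthesis were smaller once diet was a term. Of 25 genes, 13 fell and 0 rose, against 11.1% and 10.1% of all genes, with a median of -1.60. With diet as a term the median was -0.44 and 2 fell, where 4.58% of all genes did. Tm7sf2, a sterol reductase, measured 8.92, 6.64 and 11.01 CPM on the high side. On the low side it measured 129 and 188 CPM in the normal-diet libraries but 13.9 and 12.8 in high-fat diet replicate 1 and SCL-treated replicate 3. Left-out normal diet replicate 3, at a mitochondrial share of 11.2%, held 104 CPM. Its difference of -3.28 became -0.58 with diet as a term, not called (adjusted p = 0.26). Cyp51 and Msmo1, demethylation enzymes of the pathway, differed by -2.72 and -2.54, and by -0.44 and -0.60 with diet as a term. Tm7sf2, Cyp51 and Msmo1 lost their call with diet as a term, without either normal-diet library or without any 1 of the high-side libraries.

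Interferon-response and inflammatory genes were called in opposite directions. Of 31 interferon-response genes, 10 fell and 1 rose, against 11.1% and 10.1% of all genes, with a median of -0.58 that was -0.72 with diet as a term. Under total scaling 3 fell and 3 rose, where 5.17% of all genes fell and 19.3% rose. The balance of the count thus depends on the scaling. The list median was then -0.17, below the 0.36 of all genes. Ddx58, which encodes the RNA sensor RIG-I, measured 1.67, 3.81 and 0.371 CPM against 36.1, 21.1, 36.6 and 8.59, a difference of -3.70 (SE 0.67, adjusted p = 0.0064). Ifih1, which encodes the sensor MDA5, measured 11.2, 11.8 and 13.4 CPM against 30.7, 26.9, 39.1 and 22.1 and fell by 1.30. Both sensors were lower in all high-side libraries. Oas1a, an activator of RNA decay, fell by 1.86 and Bst2, which tethers budding virus, by 1.53. Irf7, Mx1, Mx2, Oasl and Usp18 were also among those that fell, and Ifi44 rose. Of 19 inflammatory genes, 5 rose and 0 fell, with a median of 0.60. These were Selp, an endothelial adhesion molecule, by 1.72, the cytokines Il18 and Il1b by 1.58 and 0.92, and the chemokines Ccl5 and Ccl4 by 1.53 and 1.35. Ddx58, Oas1a, Ifih1 and Ccl5 kept their call when any 1 library was left out. Leaving out high-fat diet replicate 3 ended 5 of the 9 calls given with a value, and each other library apart from SCL-treated replicate 3 ended 2 or 3. Bst2, Ccl4, Ccl5, Il18 and Il1b lost their call with diet as a term.

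Stress genes moved one by one, and their counts stand beside the 10.1% of all genes that rose and the 11.1% that fell. Under total scaling those shares of all genes were 19.3% and 5.17%. Of 17 heat shock genes, 4 rose, and of 24 hypoxia genes, 5 rose and 1 fell, with list medians of 0.12 and 0.06. Hspa8, the constitutive Hsp70, measured 13.2, 84.0 and 48.3 CPM against 7.39, 3.89, 6.996 and 12.2 and rose by 2.68; it has close copies, so its level is uncertain. Hspa1b measured 2.25, 22.6 and 3.96 CPM against 2.26, 1.98, 1.25 and 1.23, so its rise of 2.50 came largely from high-fat diet replicate 3 and the sides overlapped. Cryab and Hspb1, small heat shock proteins, rose by 1.89 and 1.42. Vegfa, the vascular growth factor, measured 346, 409.6 and 335 CPM against 156, 188, 160 and 154 and rose by 1.14 (SE 0.23). Car9, a carbonic anhydrase induced by low oxygen, Ndrg1 and Kdm3a, a histone demethylase, rose by 3.09, 1.45 and 1.10. Of 29 antioxidant genes, 3 fell and 1 rose, with a median of -0.34. Under total scaling 1 fell and 2 rose, with a median of 0.02. Among them, Nqo1, Gclm and Prdx6 fell, by 2.66, 1.12 and 0.84, and Gstp1 rose by 1.21. The sides overlapped for Nqo1. Of 26 immediate early genes, 2 fell and 0 rose, Dusp1 by 1.02 and Zfp36 by 0.76, whereas 0 fell and 3 rose under total scaling. Hspa8 and Vegfa kept their call when any 1 library was left out. Without SCL-treated replicate 2, 11 of the 14 stress calls were lost, without high-fat diet replicate 3, 10, and without 1 of the low-side libraries other than SCL-treated replicate 3, 5 to 8. Diet as a term ended 11 of the 14, among them Hspa8 at 2.44 (adjusted p = 0.063) and Vegfa at 1.19 (adjusted p = 0.054).

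Some markers of the cells of the liver differed between the sides, and their part in the results above was not tested. Over all genes 10.1% rose and 11.1% fell, or 19.3% and 5.17% under total scaling. The 12 hepatocyte markers, Alb among them, summed to 96653 to 196190 CPM on the high side and 194060 to 305530 on the low side, with overlap. Of these markers 2 fell, Cps1 and Hnf4a. Hnf4a, a master regulator of hepatocyte genes, measured 325, 376 and 227 CPM against 651, 582, 741 and 431. Of 12 periportal markers 4 fell and 1 rose, or 2 and 2 under total scaling, whereas 0 of 11 pericentral markers were called. Of 12 sinusoidal endothelial markers 10 had a negative difference and 2 fell, Stab2 by 1.20 and Kdr by 0.76. Under total scaling 0 of these markers were called. The sum of the 12 was 341 to 418 CPM against 446 to 570 CPM.

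Markers of other cell types differed in both directions, where 10.1% of all genes rose and 11.1% fell. The 8 tested cholangiocyte markers summed to 79.6 to 124 CPM on the high side and 42.6 to 54.3 on the low side, and 3 rose. Spp1, osteopontin, measured 15.1, 10.99 and 27.1 CPM against 2.57, 2.42, 1.12 and 4.35, and Krt19, a duct keratin, rose by 2.43, while Krt7 was too low to test. The 12 T and NK cell markers summed to 67.5 to 84.6 CPM against 40.3 to 57.3, with Gzma, a granzyme, at 16.3, 12.5 and 17.9 CPM against 2.57, 3.67, 2.77 and 4.24. Cd3g and Klrd1 also rose and Cd4 fell, while Cd3d and Cd3e were too low to test. The stellate and fibroblast markers summed to 527 to 969 CPM against 553 to 686 CPM and overlapped, but Acta2, smooth muscle actin, and Dcn, decorin, rose by 2.45 and 2.096 and Reln fell by 1.67. Erythroid markers summed to 648 to 1573 CPM against 172 to 460 CPM, with the haemoglobin gene Hba-a2, which has a near-identical copy, rising by 2.22. Globin genes took 0.0602%, 0.194% and 0.200% of nuclear reads on the high side and 0.0379%, 0.0156%, 0.0300% and 0.0340% on the low side (exact two-sided permutation test, p = 0.0286, adjusted p = 0.095). Of 14 macrophage markers 11 had a negative difference, with a median of -0.57, while Lyz2 rose by 1.53 and Vsig4 fell by 1.31. Of 6 tested adipocyte markers Lpl rose by 2.79 and Cidea fell by 1.05. Of 7 tested B and plasma cell markers, Ighm, an immunoglobulin chain, rose by 1.83 and Sdc1, syndecan 1, fell by 1.35. The latter list summed to 423 to 598 CPM on the high side and 395 to 684 CPM on the low side, with overlap. Of the 20 called markers named in these paragraphs, 10 kept their call when any 1 library was left out, namely Lyz2, Acta2, Dcn, Reln, Spp1, Gzma, Cd3g, Hba-a2, Lpl and Sdc1. Leaving out high-fat diet replicate 3 or SCL-treated replicate 2 ended 9 calls each, and the other libraries apart from SCL-treated replicate 3 ended 3 to 6. Cd3g, Cd4, Cidea, Cps1, Hnf4a, Ighm, Kdr, Klrd1, Stab2 and Vsig4 lost their call with diet as a term.

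**Figure D4:**
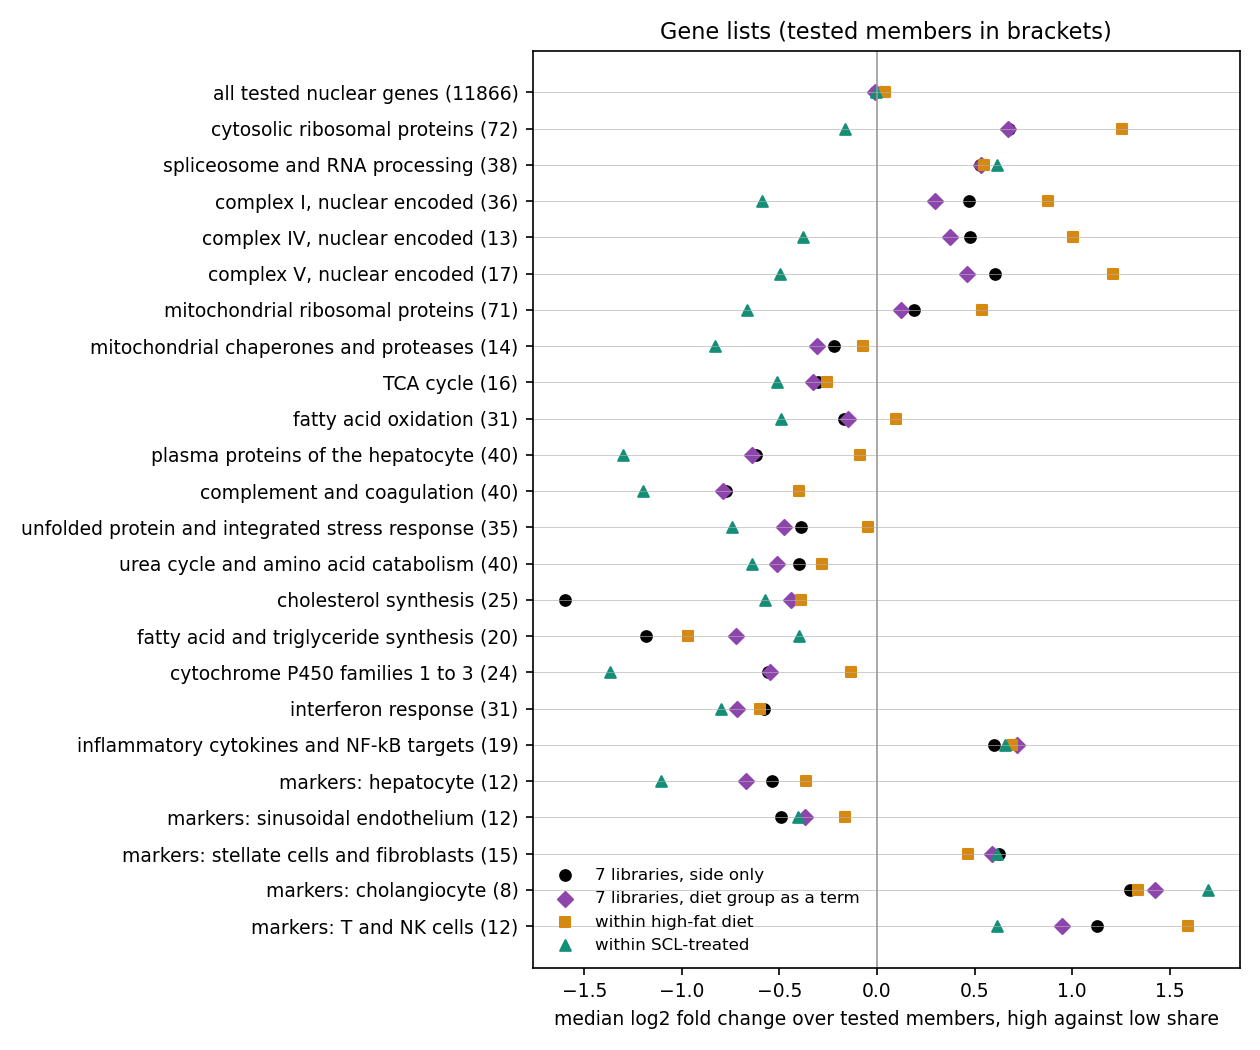
Median log2 fold change of each gene list, high against low share, from the fit on side alone, the fit with diet group as a term, and within each diet group. RNA processing and cholangiocyte lists are positive in all 4, ribosomal and respiratory chain lists change sign between the diet groups (1.25 and -0.17 for ribosomal proteins), and cholesterol synthesis shrinks from -1.60 to -0.44 with diet as a term.

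The opposite signs within the diet groups went with transcript length, as worked out from the counts and FPKM. Over all 7 libraries, the 279 genes under 500 nucleotides had a median difference of 0.62, and the 287 genes over 8000 nucleotides had -0.16. Within the high-fat diet group the medians were 1.17 and -0.47, and within the SCL-treated group they were -0.14 and 0.59. The rank correlation of the difference with length across the 11866 genes was -0.24 within the high-fat diet group and 0.25 within the SCL-treated group. Genes are not independent replicates, so these values are descriptions. Without ribosomal protein and respiratory chain genes, genes under 500 nucleotides still had medians of 1.07 and -0.13 in the 2 groups. Short genes were thus higher in the high-side libraries of the high-fat diet group, whereas in the SCL-treated group the low-side library held relatively more of them. Ribosomal protein and small respiratory chain genes are short, and the part of length in their differences was not tested. By level, genes above 9 on the log2 CPM scale had a median of -0.35 and genes below 1 had 0.30.

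**Figure D5:**
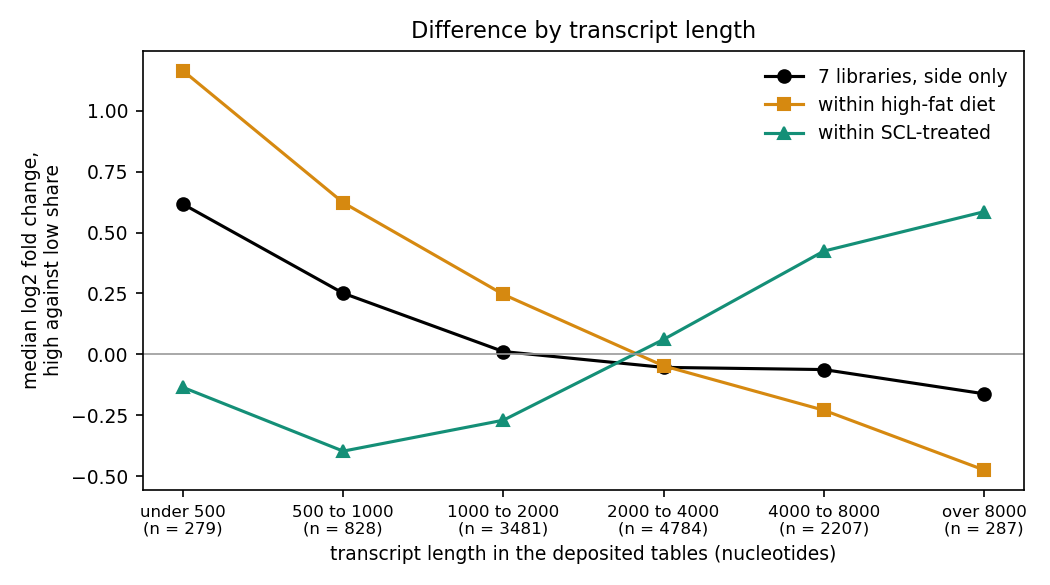
Median log2 fold change, high against low share, for genes grouped by transcript length in nucleotides, over the 7 libraries and within each diet group. The line falls from 1.17 to -0.47 within the high-fat diet group and rises from -0.14 to 0.59 within the SCL-treated group.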

How the data were processed

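RNA-seq of 9 rat liver libraries was used. The authors deposited 2 tables which, per the file headers, hold raw counts, a normalized signal (counts over size factors), FPKM, log2 fold changes and p-values. The raw counts were used, and transcript lengths were worked out from the counts, FPKM and library totals. The submitters' processing notes name DESeq2 and the build mm9, a mouse build, so no build is assumed for these rat counts. The aligner is not given in the sources used here. Among all symbols, 92.6% matched rat RefSeq genes, and high-fat diet counts were identical in both tables for all shared genes. The tables held 15819 and 15929 genes.

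The 15552 nuclear genes of both tables were filtered with filterByExpr (minimum count 10), scaled by TMM and tested with edgeR 4.0.16 in R 4.3.3 on side alone, with 5 residual degrees of freedom and Benjamini-Hochberg adjustment at 0.05. Within-diet values come from a fit with a side effect for each diet group. DESeq2 1.42.0 and limma 3.58.1 served as alternatives. Scripts were tested on simulated data. Library measures used exact permutation tests, adjusted over 10 measures. No 2 libraries of a group agreed within sampling noise (chi-square per degree of freedom of at least 36.5).

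The members and the 53 gene lists were chosen with earlier results of these data known, and 3 further lists after values were seen. Genes are named by a fixed rule: the 12 largest rises and falls among called genes of at least 1 log2 CPM with sides that do not overlap, and up to 4 called members of a list. Luc7l2, Prpf8, Sf3b2, Ddit3, Alb, Lcn2, Rpl13a, Rpl35, Rps2, Eif3k, Tfam, Il1b, Ifih1, Gckr and those named without a value were chosen after their values were seen. Some genes that the rule would name are not reported here. Whether counting used strand is not given, so overlapping genes are uncertain.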

Additional observations from a re-analysis of the deposited data

Results flagged for a closer look

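In the 4 low-side libraries, 1 library stood apart from the rest by Dixon's criterion on the log2 scale for 10 of the 144 genes examined singly. Chance flags about 1 in 20 groups. SCL-treated replicate 3 was the lowest for Edem3 at 2.12 CPM, Slc7a2 at 27.7 CPM, Atf6 at 14.3 CPM, Masp1 at 31.0 CPM, Cps1 at 3288 CPM and Insr at 38.5 CPM, and the highest for Prdx6 at 288 CPM. High-fat diet replicate 1 was the highest for Hadh at 343 CPM and Npas2 at 25.1 CPM. Normal diet replicate 1 was the lowest for Cidea at 8.87 CPM.

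The fit with a side effect for each diet group assumes that its lone libraries vary like the others. In it, the difference between the sides was compared between the high-fat diet and SCL-treated groups in edgeR, with 2 residual degrees of freedom. It passed for 1 of 11866 genes, 0.00843%, with 2130 at an unadjusted p under 0.05. That gene was Lcn2, a neutrophil and acute-phase protein, for which the difference of differences was -11.15 (adjusted p = 0.015). Lcn2 measured 14.8, 8.6001 and 11.6 CPM on the high side and 3.42, 3.01, 0.066 and 174 on the low side, so SCL-treated replicate 3 was far above and high-fat diet replicate 1 far below the others.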

How the results depend on the processing

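The count of 2509 called genes became 945 with diet group as a term, 391 with the high-fat diet and SCL-treated libraries alone, 3875 with limma-voom quality weights and 718 at an adjusted p under 0.01. It ranged from 1063 to 3946 when 1 library was left out. Within the diet groups, an alternative added after the data were seen, it was 1446 and 0. DESeq2 called 3295, and the remaining settings (other scaling, other count filters, other placement of the libraries) 2172 to 3759. With the replicate number as a block, 444 genes were called. The deviations of same-numbered libraries on opposite sides correlated at -0.053, -0.116 and -0.040 across genes. These few pairs cannot tell whether same-numbered libraries share a source, and the labels do not say. The cause of these changes in the count was not tested, apart from fewer libraries.

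Adding the 2 left-out libraries to the low side took 8 library measures to an exact permutation adjusted p of 0.045: the differences in percent of nuclear reads were -7.225, -8.03 and -7.62 for the 10, 50 and 100 most abundant genes, 0.805 for ribosomal proteins, -8.23 for plasma proteins, 0.440 for the respiratory chain, 0.0111 for histones and 0.106 for globins. Nuclear-retained noncoding RNA, read from 1 gene, ranged from -6.81e-06 to 2.8e-05 when 1 library was left out, and was below 0 without high-fat diet replicate 3. Leaving out 1 library kept the direction of the other 9 measures.

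Of the 144 genes examined singly, Lcn2 and Tfam, neither of them called, changed direction. Lcn2 was at 0.203 with diet as a term and 2.74 with limma-voom, and ranged from -2.36 to 2.44 when 1 library was left out, above 0 without SCL-treated replicate 3. Tfam was at -0.046 with no filter, -0.11 with the replicate block, -0.014 with high shares over 40%, -0.10 with the left-out libraries added, -0.0046 per doubling of the share, and -0.037 to 0.10 when 1 library was left out. Diet as a term ended 66 of the calls, the replicate block 89 and total scaling 22. Depth limits genes of few reads on the high side.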

Other observations

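Families picked by name after values were seen also leaned one way, and their counts are given as a description. Over all tested genes 10.1% rose and 11.1% fell. With diet as a term those shares were 3.38% and 4.58%, and under total scaling 19.3% and 5.17%. Of 208 tested zinc finger genes named Zfp, 35 rose and 10 fell on the high side, with a median of 0.28. Of 70 tested Ccdc genes, which encode proteins with coiled-coil domains, 14 rose and 2 fell, with a median of 0.47. Of 217 tested solute carriers named Slc, 11 rose and 40 fell, with a median of -0.34 that was 0.03 when libraries were scaled by total nuclear reads. With diet as a term, 14 Zfp genes rose and 4 fell, 2 Ccdc genes rose and 0 fell, and 5 solute carriers rose and 24 fell. Of 34 proteasome genes, 3 fell and 0 rose, with a median of 0.18, whereas 0 fell and 9 rose when libraries were scaled by total nuclear reads. Of 10 tested histone genes 1 fell, Hist1h1c by 1.38, and 0 rose, whereas 0 fell and 1 rose under total scaling. Histone genes together nevertheless took 0.0560% to 0.0699% of nuclear reads on the high side and 0.0454% to 0.0548% on the low side. Of 23 tested cell cycle genes 1 rose.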
